A study of Mus musculus with 4 samples.

Results

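The genes described here encode nucleolar proteins that make ribosomes, a set of 42 mouse genes chosen by name. Of these, 41 were measured by a probe set annotated to that gene alone, among 19937 genes measured on the arrays. The remaining member, Ppan, was annotated only together with another gene and has no value here. Where a gene had several probe sets, the one with the largest average across arrays stood for it.

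The samples were EGFP-positive cells sorted from gliomas of C57/Bl6 mice. All groups carried 1 alteration, overexpression of PDGF-B together with EGFP from a retrovirus injected at embryonic day 14. PDGF-B is a growth factor for glial progenitors, and EGFP, made from the same transcript, marked the cells for sorting. The early-onset, low-grade group held 2 samples, here called pool 1 and pool 2, each made of cells from 2 tumours. The late-onset, high-grade group held 2 samples, called tumour 1 and tumour 2, each from 1 tumour. Onset, grade and pooling therefore changed together between the groups, and their parts in a difference cannot be told apart. The age of the animals and the promoter of the virus were not given in the sources used here. The values were log2 RMA summaries, in which a difference of 1 is a doubling, and the precision is limited by the number of arrays.

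Ribosomes are assembled in the nucleolus. RNA polymerase I copies the ribosomal RNA genes into a long precursor, and small nucleolar ribonucleoproteins (snoRNPs) modify its nucleotides. Large assemblies of further proteins cut and fold the precursor with ribosomal proteins into a small and a large subunit. Growing and dividing cells make ribosomes fast, and the transcription factor MYC, which binds the E-box letters CACGTG, is a well known activator of these genes.

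Stretches of the start regions of some members are shown because the members were measured as transcripts and their promoters were not used to choose them. RefSeq windows (GRCm38.p6, 250 bases before to 50 after an annotated start) were found for 36 of the 41 members, and for Fbl, Bop1, Rrp12, Rrs1 and Npm1 none was used here. The 250 bases before the start follow for the 4 called members with the largest log2 differences that had a single window. Capitals mark every match, on either strand, to the E-box CACGTG, the ETS letters CCGGAAGT, the GC box GGGCGG, the CCAAT box and the TATA box TATAAA.
Ltv1 (chr10:13193138-13193387, minus strand): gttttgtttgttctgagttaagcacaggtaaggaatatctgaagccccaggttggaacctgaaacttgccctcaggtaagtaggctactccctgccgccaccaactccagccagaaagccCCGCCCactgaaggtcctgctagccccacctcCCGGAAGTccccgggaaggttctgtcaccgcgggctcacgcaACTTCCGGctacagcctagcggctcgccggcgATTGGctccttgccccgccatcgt
Nop58 (chr1:59684756-59685005, plus strand): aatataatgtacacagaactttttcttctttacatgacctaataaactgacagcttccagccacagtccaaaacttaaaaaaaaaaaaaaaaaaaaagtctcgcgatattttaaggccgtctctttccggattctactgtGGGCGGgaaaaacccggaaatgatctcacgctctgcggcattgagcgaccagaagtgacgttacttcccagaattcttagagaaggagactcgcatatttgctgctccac
Dkc1 (chrX:75095604-75095853, plus strand): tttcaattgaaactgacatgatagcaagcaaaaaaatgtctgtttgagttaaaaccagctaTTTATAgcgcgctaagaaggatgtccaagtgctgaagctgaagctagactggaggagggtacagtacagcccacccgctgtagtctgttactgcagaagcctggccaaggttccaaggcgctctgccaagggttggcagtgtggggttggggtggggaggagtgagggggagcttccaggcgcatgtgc
Gnl3 (chr14:31019132-31019381, minus strand): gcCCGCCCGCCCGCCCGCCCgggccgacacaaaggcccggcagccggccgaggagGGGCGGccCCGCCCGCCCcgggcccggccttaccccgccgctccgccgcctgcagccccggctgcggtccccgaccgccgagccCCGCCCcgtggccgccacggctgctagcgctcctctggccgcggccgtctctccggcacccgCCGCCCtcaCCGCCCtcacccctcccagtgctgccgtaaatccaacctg
Ltv1 held 2 ETS matches, 1 GC box and 1 CCAAT box in this stretch, while Gnl3 held 10 GC box matches and Nop58 held 1. Dkc1 held a TATA box match far from the start. None of these 4 stretches held an E-box before the start.

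An E-box lay somewhere in the window of 9 of the 36 members, or 25%, against 9.50% of 15613 measured genes with a window. Counted by window, it was in 20.9% of 43 member windows and in 8.24% of 19176 windows of all measured genes. Each of the 10 matches is given with up to 12 bases on either side, as far as the window reached, with the E-box in capitals.
Imp4 (chr1:34439696-34439725, plus strand, first capital 121 bases before the start): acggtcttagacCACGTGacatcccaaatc
Ltv1 (chr10:13193092-13193121, minus strand, first capital 29 bases after the start): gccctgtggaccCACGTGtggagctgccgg
Mybbp1a (chr11:72441355-72441376, plus strand, first capital 41 bases after the start): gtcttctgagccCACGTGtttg
Nop2 (chr6:125131811-125131840, plus strand, first capital 60 bases before the start): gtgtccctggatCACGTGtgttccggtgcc
Pes1 (chr11:3963965-3963994, plus strand, first capital 3 bases after the start): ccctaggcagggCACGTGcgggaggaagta
Rrn3 (chr16:13780472-13780501, plus strand, first capital 215 bases before the start): gagcgccaaggtCACGTGcacacgcctcta
Rrn3 (chr16:13780639-13780668, plus strand, first capital 48 bases before the start): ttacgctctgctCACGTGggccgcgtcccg
Tsr1 (chr11:74898092-74898121, plus strand, first capital 25 bases after the start): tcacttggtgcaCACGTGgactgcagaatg
Utp20 (chr10:88826765-88826789, minus strand, first capital 38 bases after the start): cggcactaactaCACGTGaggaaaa
Wdr43 (chr17:71616220-71616249, plus strand, first capital 18 bases after the start): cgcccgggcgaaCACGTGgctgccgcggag
Of the 10 matches, 8 began within 60 bases of the annotated start and 6 began after it. The ETS letters were in the windows of 12 members (33.3%, against 6.01% of all measured genes), and the GC box was in those of 28 (77.8% against 52.9%). Other motifs were less frequent in members than in all measured genes. The CCAAT box was in the windows of 13 members (36.1% against 41.7%) and the TATA box in those of 2 (5.56% against 13.6%). A motif of the factor NRF1, also sought, was in the windows of 0 members (0% against 1.61%). GC box and ETS matches overlapped in 2 member windows, and no E-box overlapped another motif. The E-box was in 3 of 13 members that rose and in 6 of 23 that were not called, and the ETS letters were in 4 of 13 and 8 of 23. These are matches of letters, with no test and no measurement of binding.

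Transcripts for ribosome assembly were mostly higher in the late-onset samples. The groups also differed in markers of microglia and macrophages, given below. Of the 41 measured members, 16 rose, 0 fell and 25 did not pass the test, and Ltv1, Npm1 and Nop58 had the largest differences. A gene was called when its Benjamini-Hochberg adjusted p, from limma over all 19937 genes, was under 0.05. Among all genes tested, 6.59% were called higher and 8.12% lower, against 39% of the members called higher. With unadjusted p under 0.05, 31 of the 41 members were higher and 0 lower, beside 14.5% and 15.4% of all genes.

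The median log2 difference (late minus early) over the 41 members was 0.40, beside -0.01 over all genes, and the members ran from -0.01 to 1.06. The difference was above 0 in 40 of the 41 members, against 48.3% of all genes. Both tumours lay above both pools in 39 members, against 28.5% of all genes. Both tumours lay below both pools in 0 members, against 30.4% of all genes, and 2 members, Ubtf and Rrp1, had groups that overlapped. Only Ltv1 reached a log2 difference of 1. All 41 members had a mean level above the median of all genes, so none was lost under a filter on dim genes. The shares over all genes include dim genes, and a share among genes of like level is not given here. With genes above the median alone, 20 members were called higher. In that fit 2753 genes were called in either direction, against 2931 of all 19937. The median difference of the genes in that fit was 0.049.

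**Figure D1:**
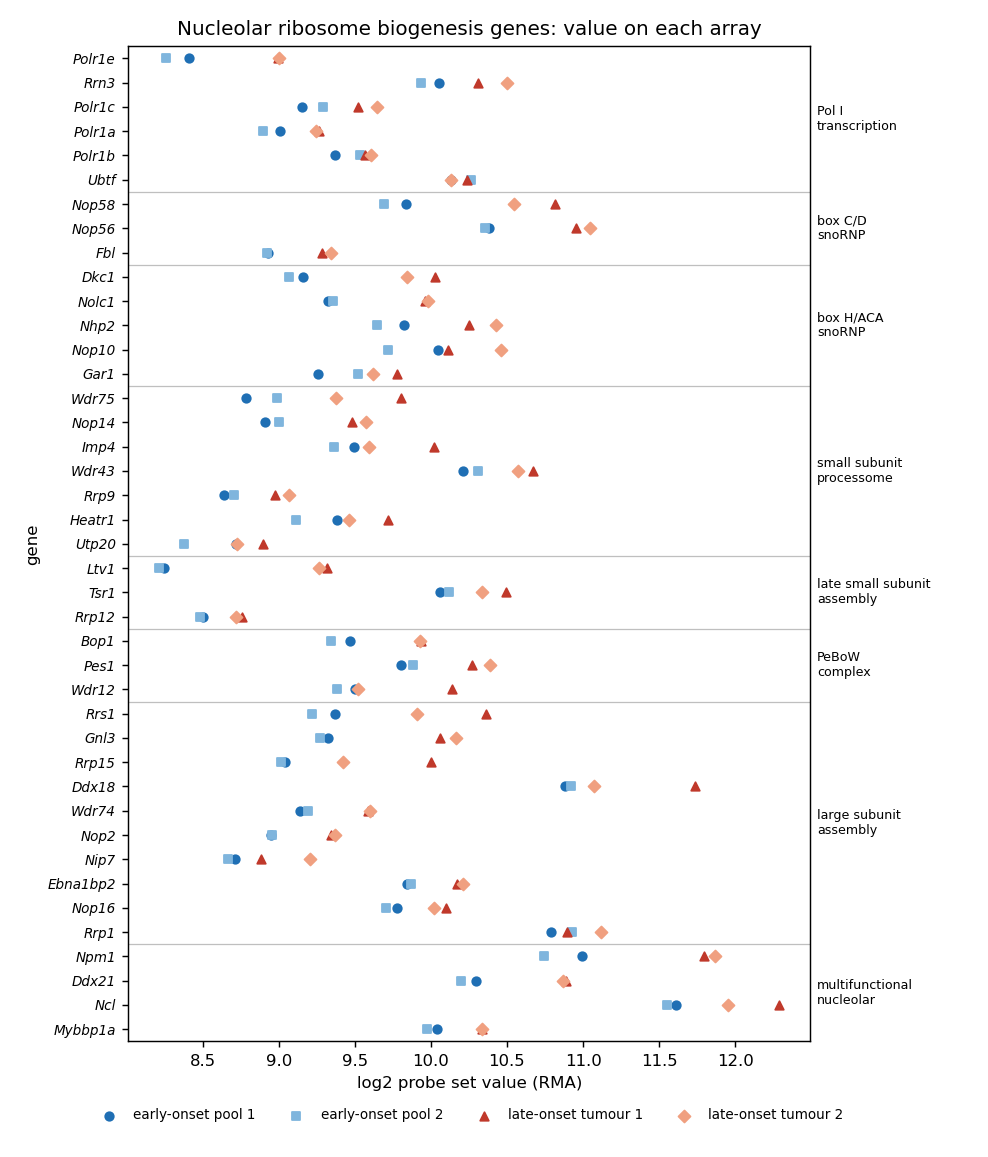
The log2 probe set value (horizontal axis) of the 41 members on each of the 4 arrays, grouped by role and ordered by difference within a role. Red symbols (late-onset tumours) lie to the right of blue symbols (early-onset pools) in 39 genes, the exceptions being Ubtf and Rrp1.

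**Figure D2:**
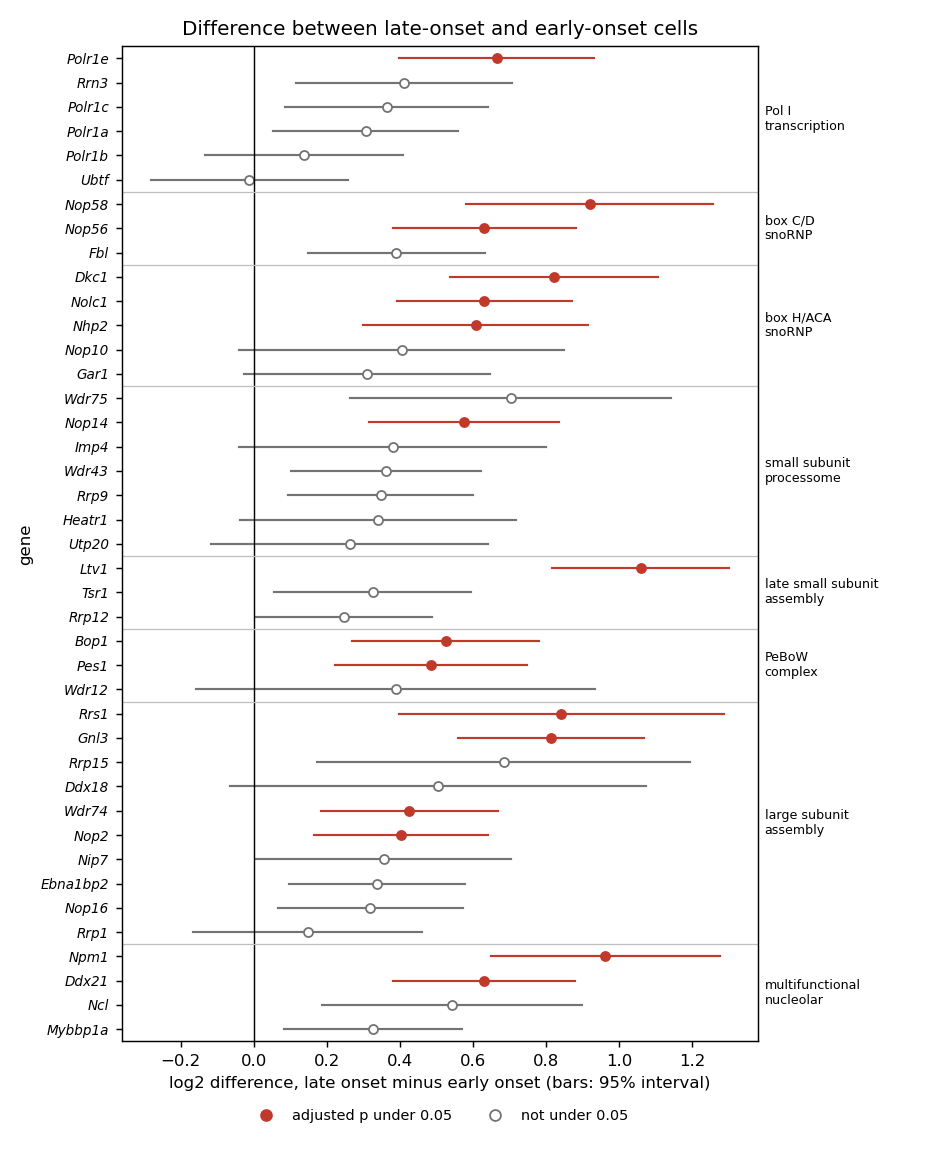
The log2 difference, late minus early, of each member with its 95% interval from limma (2 samples per group). Filled red circles mark the 16 members with an adjusted p under 0.05 and open grey circles the other 25.

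The calls rested on both pools. Without pool 1, only Ltv1 and Npm1 were called (adjusted p 0.0367 each), and without pool 2 only Ltv1 was (0.0398), the lone pool being assumed to vary like the tumours. In those fits 1.66% and 1.46% of all genes were called higher. The median difference of the members was 0.45 without pool 1 and 0.43 without pool 2. Without tumour 1 the fit called 11 members and without tumour 2 it called 15.

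Among genes of RNA polymerase I transcription, 1 of 6 rose. Polr1e, which encodes a polymerase I subunit, stood at 8.41 in pool 1 and 8.26 in pool 2, and at 9.00 in both tumours. The groups did not overlap, and Polr1e rose by a log2 difference of 0.66 (SE 0.11, limma adjusted p 0.0175). The initiation factor gene Rrn3 (0.41, 95% interval 0.11 to 0.71) and the subunit genes Polr1c (0.36, 0.09 to 0.64) and Polr1a (0.31, 0.05 to 0.56) were higher in both tumours without passing, with adjusted p from 0.0792 to 0.110. Polr1b, which encodes the second largest subunit, stood at 9.37 and 9.53 in the pools and 9.57 and 9.61 in the tumours, close enough that its interval ran from -0.13 to 0.41.

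Ubtf was the only member whose late mean was not above its early mean. It encodes UBF, which coats active ribosomal RNA genes, and stood at 10.13 in pool 1, 10.26 in pool 2, 10.24 in tumour 1 and 10.13 in tumour 2. The groups overlapped fully, at a log2 difference of -0.01 with a 95% interval of -0.28 to 0.26 (adjusted p 0.961). The sign turned to 0.046 when each array's median was subtracted, to 0.052 without pool 2 and to 0.040 without tumour 2. The interval excludes the log2 difference of 0.66 measured for Polr1e, but the difference between the 2 genes was not tested.

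The box C/D snoRNPs place methyl groups on ribosomal RNA, and 2 of their 3 core genes rose. Nop58, a core scaffold protein, stood at 9.84 and 9.69 in pools 1 and 2 and at 10.82 and 10.55 in tumours 1 and 2. Its groups lay far apart, with a difference of 0.92 (SE 0.13, adjusted p 0.0139), and tumour 1 was the higher tumour. Its paralogue and partner Nop56 stood at 10.38 and 10.35 in the pools and at 10.95 and 11.05 in the tumours. Nop56 rose by 0.63 (SE 0.10, adjusted p 0.0168), with tumour 2 slightly above tumour 1.

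Fbl, which encodes the methyltransferase fibrillarin, just missed the threshold with its probe set of higher mean. It stood at 8.93 and 8.92 in the pools and at 9.28 and 9.34 in the tumours, a difference of 0.39 (95% interval 0.15 to 0.63, adjusted p 0.0555). It passed among genes above the lower quartile (0.0472), among those above the median (0.0358) and after subtraction of array medians (0.0421). It did not pass after quantile normalization (0.0761) or cyclic loess (0.0846). With the mean of its probe sets the difference was 0.24 (adjusted p 0.165). A second probe set of Fbl stood at 8.80 and 8.81 in the pools and 8.88 and 8.93 in the tumours. Its difference was 0.10 (limma adjusted p 0.577), and the gap between the 2 probe sets was not tested. The probe set of higher mean may read a related sequence elsewhere in the genome, which could not be checked.

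The box H/ACA snoRNPs convert uridines of ribosomal RNA to pseudouridine and, through the same proteins, bind telomerase RNA. Of 5 genes placed in this group, among them the snoRNP chaperone gene Nolc1, 3 rose. Dkc1, the pseudouridine synthase dyskerin, stood at 9.16 and 9.07 in the pools and at 10.02 and 9.84 in the tumours, a rise of 0.82 (SE 0.11, adjusted p 0.0122). Nolc1, a nucleolar chaperone of snoRNPs, stood at 9.32 and 9.36 in the pools and at 9.96 and 9.98 in the tumours, and rose by 0.63 (adjusted p 0.0152). In both genes the gap between groups was far wider than that within either group.

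The third, the core protein gene Nhp2, stood at 9.82 and 9.65 in the pools and at 10.25 and 10.43 in the tumours, and rose by 0.61 (SE 0.12, adjusted p 0.0326). The call was lost without tumour 2 (0.0906). The partner genes Nop10 (0.40, 95% interval -0.04 to 0.85) and Gar1 (0.31, -0.03 to 0.65) were not called, at adjusted p 0.199 and 0.196. Gar1 stood at 9.26 in pool 1, 9.52 in pool 2, 9.78 in tumour 1 and 9.62 in tumour 2. Its pools lay 0.26 apart and its upper pool was only just below the lower tumour.

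The small subunit processome is the large particle that forms on the growing precursor RNA. Of its 7 genes, 1 rose and 6 were not called, although both tumours were above both pools in each. Nop14 stood at 8.91 and 9.00 in the pools and at 9.48 and 9.58 in the tumours, a rise of 0.57 (SE 0.10, adjusted p 0.0238). The call was lost without tumour 2 (0.0685). Wdr75 had the largest difference of the group, 0.70, but not a call (adjusted p 0.0557), and its 2 tumours lay 0.43 apart. It was called without tumour 2 (0.0269), among genes above the median (0.0406) and after subtraction of array medians (0.0378). Wdr43 (0.36), Rrp9 (0.35), Heatr1 (0.34) and Imp4 (0.38) had adjusted p from 0.0796 to 0.204. Utp20, which encodes a very large scaffold protein, had the smallest difference, 0.26 (95% interval -0.12 to 0.64). It stood at 8.72 in pool 1, 8.38 in pool 2, 8.89 in tumour 1 and 8.73 in tumour 2, so that pool 1 and tumour 2 all but coincided.

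Ltv1 was the member with the largest difference. It encodes a factor that accompanies the small subunit to the cytoplasm and is released late in its maturation. It stood at 8.25 in pool 1, 8.22 in pool 2, 9.32 in tumour 1 and 9.26 in tumour 2. The samples of each group almost coincided and the groups were 2.08-fold apart (log2 difference 1.06, 95% interval 0.82 to 1.30, adjusted p 0.00476). Ltv1 ranked 363 among 19937 genes by its difference, and it was the only member called in each of 15 other settings, with adjusted p from 0.00368 to 0.0398. The other 2 late factors of the small subunit were not called. Tsr1, a GTPase-like factor, was at 0.32 (adjusted p 0.111), and Rrp12 was at 0.25 (0.159), with 8.50 and 8.49 in the pools and 8.76 and 8.72 in the tumours.

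Pes1, Bop1 and Wdr12 form the PeBoW complex, which is needed for the large subunit and for cell proliferation. Bop1 stood at 9.47 and 9.35 in the pools and at 9.94 and 9.93 in the tumours, and rose by 0.52 (SE 0.10, adjusted p 0.0293). Pes1 stood at 9.81 and 9.88 in the pools and at 10.27 and 10.39 in the tumours, and rose by 0.48 (adjusted p 0.0384). The Pes1 call was also lost without tumour 1, without tumour 2, after quantile normalization and after cyclic loess, and the Bop1 call without either tumour. Wdr12 was at 9.50 and 9.38 in the pools, 10.14 in tumour 1 and 9.52 in tumour 2. Only tumour 1 stood clear of the pools, and the difference of 0.39 was not called (95% interval -0.16 to 0.93, adjusted p 0.304).

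Of the 10 other measured genes of large subunit assembly, 4 rose. Rrs1 stood at 9.37 and 9.22 in the pools, 10.36 in tumour 1 and 9.91 in tumour 2, and rose by 0.84 (SE 0.18, adjusted p 0.0360). Gnl3, which encodes nucleostemin, a GTPase found in stem and tumour cells, stood at 9.33 and 9.27 in the pools and 10.06 and 10.16 in the tumours. Gnl3 rose by 0.81 (SE 0.10, adjusted p 0.00945) with little spread in either group, whereas the Rrs1 tumours lay 0.46 apart.

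Wdr74 rose by 0.43, from 9.14 and 9.19 in the pools to 9.58 and 9.60 in the tumours (adjusted p 0.0440). The RNA methyltransferase gene Nop2, known as a proliferation antigen, rose by 0.40, from 8.95 in both pools to 9.34 and 9.37 (adjusted p 0.0488). Both calls lay near the threshold and were lost without either tumour, after quantile normalization and after cyclic loess.

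Of the 6 not called, Rrp15 was at 0.68 (adjusted p 0.0863) and the helicase gene Ddx18 at 0.50 (0.211). Nip7 (0.35), Ebna1bp2 (0.34) and Nop16 (0.32) had smaller differences, with adjusted p from 0.0771 to 0.162. Rrp1 had the smallest, 0.15 (95% interval -0.17 to 0.46), with 10.79 in pool 1, 10.93 in pool 2, 10.90 in tumour 1 and 11.12 in tumour 2. Pool 2 of Rrp1 was above tumour 1, so the groups overlapped.

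Among the genes of 4 abundant nucleolar proteins with several functions, 2 rose. Npm1, nucleophosmin, a chaperone of the outer nucleolus, stood at 11.00 in pool 1, 10.74 in pool 2, 11.80 in tumour 1 and 11.87 in tumour 2. The 1.95-fold gap (log2 difference 0.96, SE 0.12, adjusted p 0.0104) was wider than the 0.25 between the pools. A further 3 probe sets named Npm1 together with another gene and were not used. They stood at 10.05, 12.13 and 12.28 in pool 1 and at 9.545, 12.11 and 12.18 in pool 2. In tumour 1 they stood at 10.69, 12.67 and 12.72, and in tumour 2 at 11.26, 12.74 and 12.7. How the Npm1 signal divides among related sequences was not tested. The helicase gene Ddx21, which links polymerase I transcription with snoRNA function, stood at 10.29 and 10.20 in the pools and at 10.89 and 10.87 in the tumours, and rose by 0.63 (adjusted p 0.0168).

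Ncl, nucleolin, was at 11.61 and 11.55 in the pools, 12.29 in tumour 1 and 11.96 in tumour 2, a difference of 0.54 that just missed the threshold (95% interval 0.19 to 0.90, adjusted p 0.0625). It was called with an intensity trend in eBayes (0.0429), among genes above the median (0.0443), after subtraction of array medians (0.0397) and without tumour 2 (0.0323). It was not called without tumour 1 (0.119), after quantile normalization (0.136) or after cyclic loess (0.143). Mybbp1a, a repressor that also acts in precursor processing, stood at 10.04 and 9.97 in the pools and at 10.33 in both tumours. Its difference of 0.33 had an adjusted p of 0.0867.

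The members on chromosome 1 differed between the tumours. In tumour 1, genes of chromosome 1 as a whole stood higher: over 578 genes above the median level, tumour 2 minus tumour 1 had a median of -0.40, against 0.01 to 0.06 on each of the other chromosomes. The 8 members there, Nop58, Rrs1, Wdr75, Rrp15, Ncl, Ddx18, Wdr12 and Imp4, were each higher in tumour 1, with tumour 2 minus tumour 1 from -0.66 to -0.27. The 33 members elsewhere ran from -0.26 to 0.35. Late minus early over the same 578 genes of chromosome 1 had a median of 0.24, against -0.004 to 0.097 on the other chromosomes. How far the differences of the 8 members follow that of the whole chromosome was not tested. A gain of chromosome 1 was not tested.

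The spread between the tumours entered the tests of the members on chromosome 1. The median SE of the difference was 0.174 for the 8 members and 0.103 for the 33, and 2 of the 8 were called although their median difference, 0.61, was above the 0.39 of the others. Without tumour 1 the medians were 0.39 for the 8 and 0.43 for the 33, with 1 and 10 called, and without tumour 2 they were 0.88 and 0.39, with 7 and 8 called. Over all genes, 6.08% and 4.60% were called higher in those fits.

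Singly, Nop58 stood at 0.78 without tumour 1 (adjusted p 0.0289) and 1.05 without tumour 2 (0.0164). Rrs1 was 0.61 without tumour 1, where its call was lost (0.0513, as after cyclic loess), and 1.07 without tumour 2. Rrp15 was 0.39 and 0.97, and Wdr75 was 0.49 and 0.92. Ddx18 was 0.17 without tumour 1 and 0.83 without tumour 2, and Wdr12 was 0.08 and 0.70. Ncl was 0.38 without tumour 1 and 0.71 without tumour 2, and Imp4 was 0.17 (adjusted p 0.461) and 0.59 (0.0576). For Ddx18 and Wdr12 these values, called without tumour 2 only, come from the probe set with the higher mean, and the second probe sets gave overall differences of 0.47 and 0.31 with no call. Whether these probe sets read related sequences elsewhere in the genome could not be checked. Off chromosome 1, 14 of 33 members rose.

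**Figure D3:**
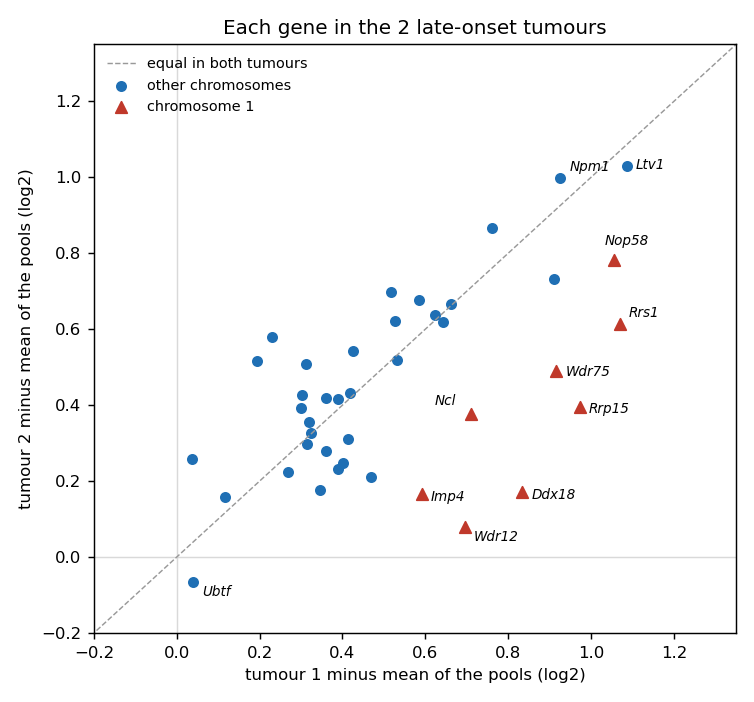
Each member's log2 value in tumour 1 (horizontal axis) and tumour 2 (vertical axis), both minus the mean of the 2 pools, with the dashed line where the tumours are equal. The 8 members on chromosome 1 (red triangles) all lie below the line, and the 33 on other chromosomes (blue circles) lie on both sides of it.

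Off chromosome 1 the gap between the tumours was small. The median absolute gap between tumours was 0.09 in the 33 other members, and between pools it was 0.09 over all 41, beside 0.14 and 0.12 over all genes. Of the 33, 13 were higher in tumour 1 and 20 in tumour 2. In the pools, 25 of the 41 were higher in pool 1 and 16 in pool 2.

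Of 109 further genes of the pathway, 106 were measured. By limma 35 of the 106 rose (33%) and 0 fell, beside 6.59% and 8.12% of all genes, and 71 were not called. The median log2 difference of the 106 was 0.39. Unadjusted p was under 0.05 for 68 of them, all higher, beside the 14.5% of all genes higher at that p. The count was 30 without tumour 1 and 15 without tumour 2, and 0 without either pool, where unadjusted p was under 0.05 for 45 (without pool 1) and 46 (without pool 2), all higher. In those fits 9.55% and 9.28% of all genes were higher at that p. Both tumours were above both pools in 86 of the 106 and below both in 2, beside 28.5% and 30.4% of all genes. The groups overlapped in 18 of the 106.

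Of 32 further processome genes, 14 rose. Tbl3, a scaffold protein gene, stood at 9.30 and 9.35 in the pools and 10.08 and 10.12 in the tumours, a rise of 0.77 (adjusted p 0.00945), and Mphosph10 rose by 0.76 (0.0152). Of 45 large subunit genes, 13 rose, among them Lyar (0.75, adjusted p 0.0108) and Mrto4 (0.69, 0.0454). Of 9 RNA exosome genes, which encode a ribonuclease complex that trims precursor RNA, 3 rose, with Exosc8 at 0.76 and Exosc1 at 0.68. The late small subunit genes Bysl (0.56) and Riok2 (0.50) rose, 2 of 6, as did the snoRNP assembly genes Ruvbl2 (0.65) and Nufip1 (0.62), 2 of 5.

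Of 9 further genes of polymerase I transcription, 1 rose. Taf1d, which encodes a subunit of the selectivity factor at the ribosomal RNA promoter, stood at 9.37 and 9.27 in the pools. In the tumours it stood at 10.12 and 10.15, a rise of 0.82 (SE 0.10, limma adjusted p 0.00891). Taf1d had 6 probe sets, and only the one of highest mean is given here. Ttf1, which encodes the terminator of polymerase I, had the lowest difference of the 106, -0.32 (adjusted p 0.337), and its groups overlapped. Together with the members, 2 of 15 measured genes of polymerase I transcription rose, beside 6.59% of all genes.

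**Figure D4:**
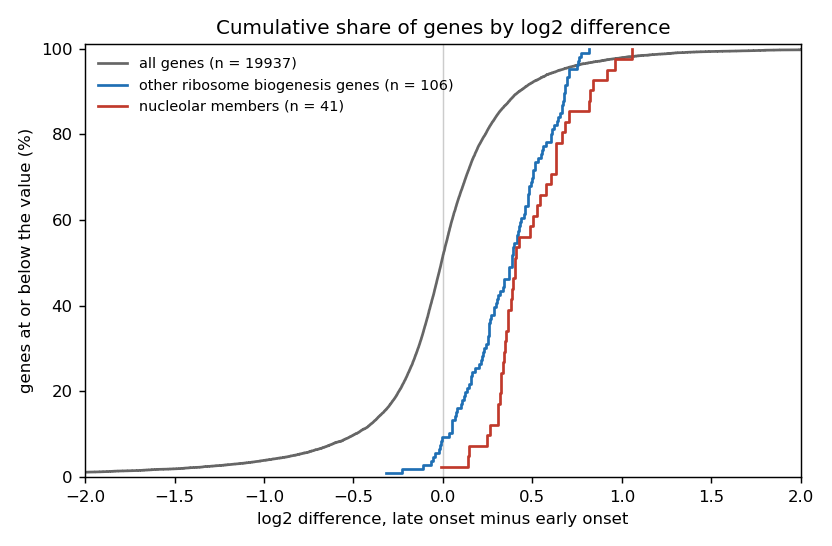
The cumulative percentage of genes (vertical axis) at or below each log2 difference, late minus early (horizontal axis, shown from -2 to 2), for all 19937 genes, the 106 further genes of ribosome biogenesis and the 41 members. The curves of both ribosome biogenesis sets lie to the right of that of all genes, with medians of 0.39 and 0.40 against -0.01.

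Markers of proliferation mostly rose along with these genes, and markers of other cells mostly fell or were not called. Of 11 proliferation genes, 10 rose, at a median of 1.08, and their summed linear level was 12800 to 14000 in the pools and 22600 to 23900 in the tumours. Of 12 microglia and macrophage markers, 12 fell, with summed levels of 25900 to 29600 in the pools and 1390 to 2290 in the tumours. Of 8 astrocyte markers, 4 fell (summed 10700 to 13000 and 5540 to 6100), and of 7 neuron markers, 4 fell and 1, Tubb3, rose (1870 to 1990 and 2500 to 2630). The neuron sum was higher in the tumours through Tubb3, while the other 6 summed to 1130 and 1570 in the pools and to 456 and 642 in the tumours. The 7 pericyte and fibroblast markers summed to 679 and 724 in the pools, 574 in tumour 1 and 4160 in tumour 2, and 1 fell.

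No marker is at 0 on these arrays, since RMA leaves a background level. The markers' part in the differences of the ribosome biogenesis genes was not tested. In bulk samples, fewer cells of a type and less RNA per cell cannot be told apart. Of 7 oligodendrocyte progenitor markers, C1ql1 (-0.84) and Pdgfra, the PDGF receptor gene (-0.45), fell, and the list summed to 39900 and 41100 in the pools and to 32000 and 30300 in the tumours. The lineage factor gene Olig2 was not called, at 12.09 and 12.12 in the pools and 11.93 and 11.89 in the tumours. Of 6 measured oligodendrocyte markers, the myelin genes Mbp (-1.45) and Mobp (-2.62) fell and Cldn11 (2.07) rose, with sums of 7140 and 10500 in the pools and 7570 and 9920 in the tumours. Of 7 endothelial markers limma called 0, with 0 at an unadjusted p under 0.05 and sums of 991 and 590 in the pools and 485 and 883 in the tumours. Of 6 T and NK cell markers 1, Cd4 (-0.44), fell, with sums of 238 to 256 over the 4 samples.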

How the data were processed

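Total RNA of 4 samples of EGFP-positive cells sorted from gliomas was measured on Affymetrix arrays. The authors deposited log2 values per probe set. The submitters' processing notes list RMA and affy 3.4.2 but give no settings. RMA is meant to bring arrays onto a common distribution, so shifts common to the majority of genes are largely removed, and changes of dim genes are understated. The deposited values still differed between arrays. Over all genes the medians were 7.474 in pool 1, 7.513 in pool 2, 7.308 in tumour 1 and 7.36 in tumour 2. The 34760 probe sets ran from 2.17 to 14.8, and column medians from 6.63 to 6.71.

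Platform annotation gave 21640 probe sets a single symbol, 1321 several and 11799 none, and only the first were used. By Entrez identifier, 21553 matched the RefSeq table (GRCm38.p6). Late minus early was fitted by lmFit and eBayes (limma 3.58.1, R 4.3.3) without a filter, over 19937 genes, with 2 residual and 3.27 prior degrees of freedom. P-values were Benjamini-Hochberg adjusted over all genes, with a threshold of 0.05, and all adjusted p-values come from limma. The procedure was tested on simulated data.

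The members and gene lists were chosen with earlier results of these data known. In each role, up to 4 called members of largest absolute log2 difference and the member of smallest difference were given with all values. Of the further pathway genes, up to 2 called per role were named. Ttf1, the single markers and the members on chromosome 1 were named after their values were seen. The labels call the samples biological replicates. Other settings tried were a trend or robust eBayes, a filter at the lower quartile or median level, 3 rescalings, 2 other probe set rules, weighted arrays, a replicate block, omission of each sample, and thresholds of 0.01 and 0.1.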

Additional observations from a re-analysis of the deposited data

How the results depend on the processing

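Among the 41 members, 16 were called higher, and under the other variance models, filters, scalings, probe set rules and array weights the count ran from 12 to 20. It was 27 at an adjusted p of 0.1 and 2 at 0.01, and 35 further pathway genes became 55 and 2. The share of all genes called at those thresholds is not given here. Leaving out 1 sample gave 1 to 15 members and 0 to 30 further genes, fewest without a pool. In none of these settings was a member or a further pathway gene called lower. The members' median of 0.40 was 0.34 after quantile normalization, 0.33 after cyclic loess and 0.46 after subtraction of array medians, and 0.42 to 0.45 with 1 sample left out. The further genes' median of 0.39 was 0.33, 0.32 and 0.44 under the same scalings and 0.37 to 0.39 with 1 sample left out. Ubtf turned from -0.01 to 0.046 after array median subtraction, and ran from -0.076 to 0.052 with 1 sample left out (0.052 without pool 2, 0.040 without tumour 2), and the other 40 members kept their sign in every setting. With the replicate number as a block, 10 members and 16 further genes were called, and calls over all genes fell from 2931 to 1833. Deviations of same-numbered samples correlated at -0.0439 over 19937 genes, so the numbers were not taken as pairs. The cause of these shifts was not tested. With 2 arrays per group, the smallest member difference called was 0.40 (Nop2), while one of 0.70 (Wdr75) was not.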
